A study of Mus musculus with 10 samples.

Results

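The 9 genes described here, *H19*, *Meg3*, *Rian*, *Mirg*, *Dlk1*, *Mest*, *Peg3*, *Grb10* and *Plagl1*, are imprinted genes that are known from muscle and its precursor cells, and they were taken by symbol from a table of 55359 mouse genes. RNA-seq was performed in C2C12, a mouse myoblast line whose cells fuse into myotubes when serum is lowered. The cells received 100 nM of a control siRNA (si-Control, 5 libraries) or of an siRNA against *Fndc1* (si-*Fndc1*, 5 libraries), and by their labels both groups had differentiated for 4 days, although the series description gives an earlier harvest. All libraries came from this single immortalized line, no genetic change was carried by either group, and no label says that libraries of a group came from separate cultures, so that p-values measure the spread between these libraries, which may be technical. *Fndc1*, which encodes a secreted protein with fibronectin type III domains, had 27.8 ± 2.04 FPKM (SD, n = 5) in si-Control and 20.9 ± 1.70 (SD, n = 5) in si-*Fndc1*, and the groups did not overlap (log2 fold change −0.40, edgeR adjusted p = 0.000934).

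Imprinted genes are expressed mainly or only from the allele of a single parent, and many of them lie in clusters governed by a methylated control region. In skeletal muscle, *H19* and *Igf2* share such a cluster, *Dlk1*, *Meg3*, *Rian* and *Mirg* share another, and several members of the list are used by muscle stem cells or by the growing embryo and are lowered after birth. The counts of these libraries did not tell the parental alleles apart, so that the values below are levels of RNA and carry nothing on imprinting itself. In whole cultures, fewer cells of a type and less RNA per cell cannot be told apart.

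Of the 9 genes, 7 had at least 1 count in any library, 4 had a count in all 10 libraries, and 3 (*H19*, *Peg3* and *Mest*) passed the filter for testing, a mean of at least 0.5 FPKM (a read count divided by transcript length and library size). *H19* and *Peg3* were lower in si-*Fndc1*, and *Mest* did not pass the test. *Grb10* was detected in all 10 libraries, with 15 to 58 counts, and lay below the filter. *Plagl1*, *Meg3* and *Rian* were near the limit of detection. *Dlk1* and *Mirg* had no count in any library. A call is an adjusted p under 0.05 in edgeR's quasi-likelihood test, with the adjustment over the 13548 genes tested. It was reached by 34.4% of all tested genes, 17.2% lower and 17.3% higher in si-*Fndc1*. Against that background, the 2 calls among the 3 tested genes are given as values of single genes and not as a property of the list.

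The si-Control libraries held 66771605 to 75995168 counts and the si-*Fndc1* libraries 56332844 to 72839369. A count of 0 allows up to 3 counts, which is 0.0395 to 0.0533 CPM (counts scaled to library size) depending on the library, and such limits cover counting error only. All 14 myogenic marker genes were detected and tested, from *Myod1* and *Myf5* to *Ckm* and *Myh3*, with 3 called higher, 2 called lower and a median log2 fold change of −0.05. Of 20 liver transcripts, 18 were tested and all 18 were called higher, with a median log2 fold change of 5.82. The FPKM of that list added up to 1.48 to 8.32 in the si-Control libraries and to 64.2 to 211.5 in the si-*Fndc1* libraries. *Alb*, the serum albumin gene, had 0 to 492 counts per si-Control library and 1763 to 11579 per si-*Fndc1* library, and *Afp*, its fetal relative, was at 0 in all 10 libraries. Of the listed markers of adipocytes, blood, endothelium and nerve, *Cd68*, *Hba-a1* and *Tubb3* were tested, with log2 fold changes of −0.18, 0.42 and −0.09 that did not pass the test (edgeR adjusted p = 0.556, 0.352 and 0.247). The hemoglobin gene *Hbb-bs*, below the filter, had 0.00309 FPKM in si-Control and 0.33 in si-*Fndc1* on average (adjusted p = 0.00781 in the fit without the filter). The liver transcripts and *Hbb-bs* moved with the groups, and their part in the values below was not tested.

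**Figure D1:**
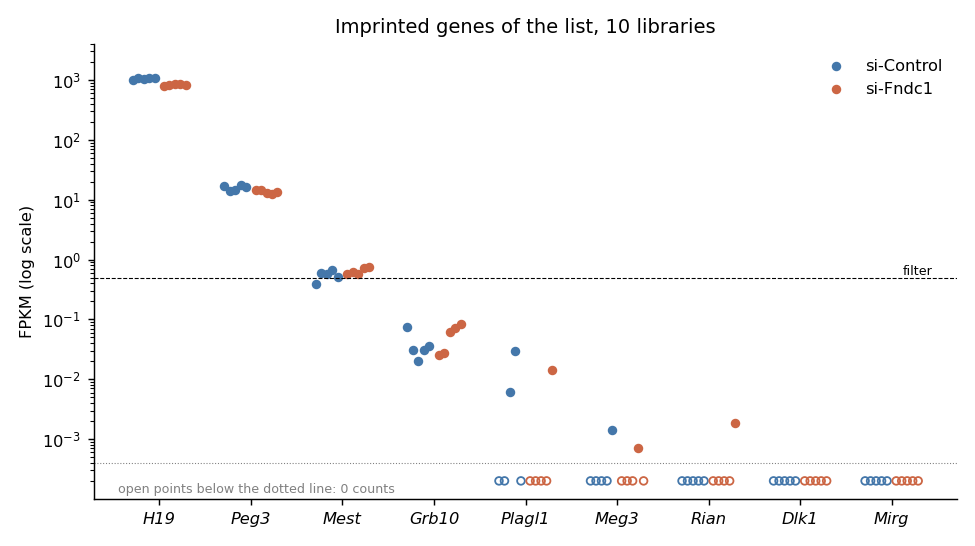
FPKM of the 9 imprinted genes in each of the 10 libraries, on a log scale, with si-Control in blue and si-*Fndc1* in orange. Filled points are libraries with a count, open points under the dotted line are libraries with 0 counts, and the dashed line is the filter of 0.5 FPKM on the mean. *H19* stands between 798 and 1095 FPKM, *Peg3* between 12.4 and 17.3, *Mest* around the filter and the other 6 genes below 0.1.

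*H19* is a spliced, polyadenylated long noncoding RNA of the maternal allele that rises when myoblasts differentiate, binds let-7 microRNAs and carries the precursor of miR-675 in its first exon. The table lists it as an lncRNA (ENSMUSG00000000031) on the minus strand of chromosome 7 from 142129266 to 142131880. Among 9941 listed lncRNA genes, 4078 of them with a count, it had the highest FPKM in every library. Its mean over all libraries was 939.5 FPKM, and the next lncRNA, *Malat1*, a nuclear RNA of most cell types, had 168.8. *H19* took 24.9% to 30.4% of all lncRNA counts in si-Control libraries and 25.9% to 27.7% in si-*Fndc1* libraries, and among all genes it ranked 30 to 33 by FPKM in the first group and 40 to 42 in the second.

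In si-Control replicates 1 to 5, *H19* had 991, 1092, 1026, 1066 and 1095 FPKM. In si-*Fndc1* replicates 1 to 5 it had 798, 822, 845, 844 and 816 FPKM. Every si-*Fndc1* library was below every si-Control library, a separation in that direction that 13% of the 13548 tested genes showed and that 25.1% showed in either direction. The means were 1054 ± 44.9 FPKM (SD, n = 5) and 825 ± 20.0 FPKM (SD, n = 5), so that *H19* was 21.7% lower in si-*Fndc1*. The log2 fold change from the counts was −0.35 with a standard error of 0.04 (edgeR adjusted p = 6.74e-05). The difference was larger than the spread between libraries in both groups. In CPM, the means were 2880 ± 122 (SD, n = 5) and 2258 ± 53.3 (SD, n = 5).

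MiR-675 is cut from the first exon of *H19*, and its mature forms are shown because *H19*, the member with the highest level, is their host. The sequences are those of RefSeq, build GRCm38.p6, and the seed, bases 2 to 8, is in capitals. The first lies at chr7:142577112-142577133 and the second at chr7:142577078-142577099, both on the minus strand. These positions cannot be set against the listed ones, which are of another build and put *Mir675* at 142130801 to 142130884, inside *H19*.
mmu-miR-675-5p: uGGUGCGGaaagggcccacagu
mmu-miR-675-3p: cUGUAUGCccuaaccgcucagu
The seeds differ, and libraries made from polyadenylated RNA do not measure these short RNAs. The gene *Mir675* itself was listed with 2 counts in each of the 10 libraries, beside 125373 to 212818 counts on *H19*, which covers it on the same strand. These counts carry no information on the mature microRNA.

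*Igf2* encodes a fetal growth factor that is made from the paternal allele and shares its enhancers with *H19*. The table lists it from 142204503 to 142215607 on the same strand, 72.6 kb from *H19*, and lists the overlapping protein-coding gene *Gm49394* from 142204506 to 142223679. In si-Control replicate 1, *Igf2* had 1916 counts and *Gm49394* had 8549, whereas the other 9 libraries had 5482 to 8743 counts on *Igf2* and 0 to 759 on *Gm49394*. The counts of the pair therefore cannot be told apart in that library, and only their sum is comparable across libraries. The sum ranged from 8055 to 10465 over the si-Control libraries and from 5492 to 8743 over the others.

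In CPM, the sum of *Igf2* and *Gm49394* was 123 ± 10.4 (SD, n = 5) in si-Control and 112 ± 9.0 (SD, n = 5) in si-*Fndc1*. The log2 fold change of the sum was −0.13 with a standard error of 0.07 (edgeR adjusted p = 0.157), and it did not pass the test. Counted alone, *Igf2* had a log2 fold change of 0.19 (adjusted p = 0.701) and *Gm49394* of −7.16 (adjusted p = 0.0238), and the latter became −3.97 (adjusted p = 0.0902) without si-Control replicate 1. There were 19.7 to 26.4 counts on *H19* for each count on the pair in si-Control, with a mean of 23.6 ± 2.57 (SD, n = 5). In si-*Fndc1* there were 18.4 to 22.8, with a mean of 20.3 ± 1.78 (SD, n = 5), and these ranges overlapped.

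**Figure D2:**
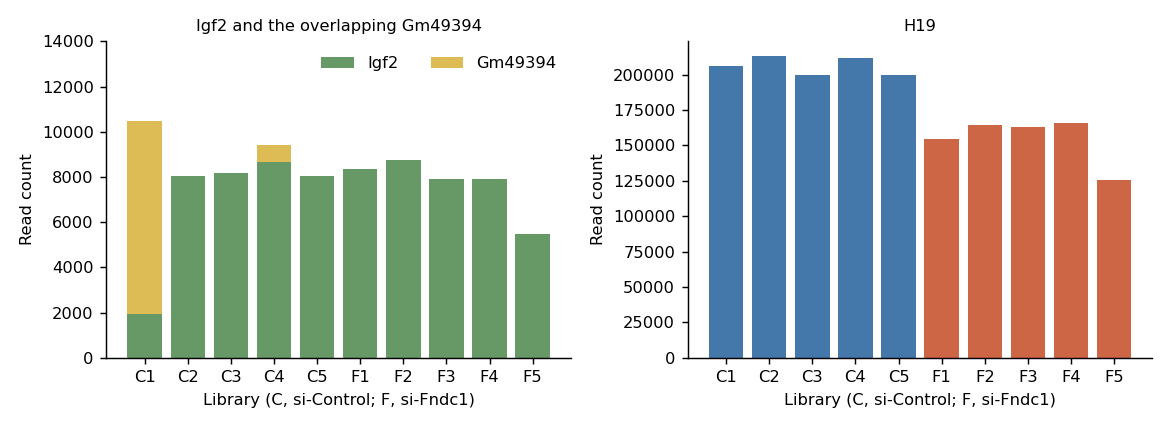
Read counts per library (C1 to C5, si-Control; F1 to F5, si-*Fndc1*), as deposited and without correction for library size. Left, *Igf2* (green) with the overlapping *Gm49394* (yellow) stacked on it, where si-Control replicate 1 has 1916 and 8549 counts. Right, *H19*, with 199708 to 212818 counts for C1 to C5 and 125373 to 165900 for F1 to F5.

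*Peg3*, a paternally expressed gene also called Pw1, encodes a large zinc finger protein found in muscle satellite cells and other stem cells, and its protein is known to bind Siah1 and Traf2. It is listed on the minus strand of chromosome 7 (ENSMUSG00000002265) from 6706891 to 6733420. Its level in si-Control replicates 1 to 5 was 17.3, 13.9, 14.7, 17.3 and 16.4 FPKM. In si-*Fndc1* replicates 1 to 5 it was 14.3, 14.5, 12.99, 12.4 and 13.2 FPKM. The groups overlapped, with 3 of 5 si-*Fndc1* libraries below all si-Control libraries and si-Control replicate 2 within the si-*Fndc1* range.

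The means of *Peg3* were 15.9 ± 1.54 FPKM (SD, n = 5) and 13.5 ± 0.874 FPKM (SD, n = 5), which is 15.4% lower in si-*Fndc1*. The log2 fold change was −0.23 with a standard error of 0.07 (edgeR adjusted p = 0.0208). That call rested on single libraries. Without si-Control replicate 1 the change was −0.20 (adjusted p = 0.0504), without si-Control replicate 4 it was −0.20 (adjusted p = 0.0515), and without si-*Fndc1* replicate 4 it was −0.21 (adjusted p = 0.0521). Leaving out any other single library kept the call, and the changes over all 10 such fits were −0.28 to −0.20.

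*Mest*, a paternally expressed gene for an enzyme-like protein of the alpha/beta hydrolase family, is listed on the plus strand of chromosome 6 (ENSMUSG00000051855) from 30723546 to 30748461. It had 132, 185, 179, 219 and 154 counts in si-Control replicates 1 to 5. It had 179, 203, 182, 227 and 188 counts in si-*Fndc1* replicates 1 to 5. The groups overlapped, with means of 0.546 ± 0.107 FPKM (SD, n = 5) and 0.649 ± 0.0822 FPKM (SD, n = 5). The log2 fold change of 0.25 had a standard error of 0.15 and a 95% interval of −0.05 to 0.55 (edgeR adjusted p = 0.239). Its listed body overlaps *Copg2*, a coat protein gene on the other strand, by 909 bases, and the counting is not stated to have used strand. *Mir335*, a microRNA gene inside *Mest*, had no count.

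**Figure D3:**
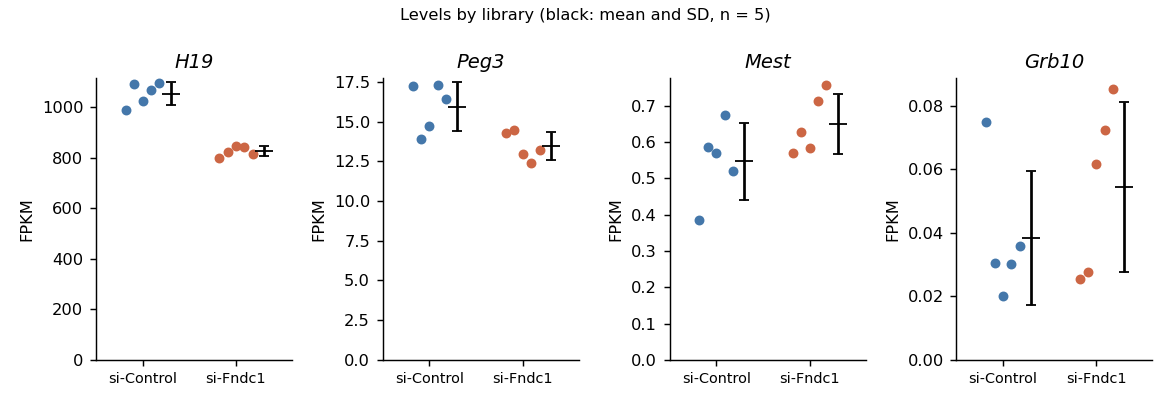
FPKM of *H19*, *Peg3*, *Mest* and *Grb10* on linear axes from 0, with 1 point per library (si-Control in blue, si-*Fndc1* in orange) and the mean with its SD in black (n = 5). The groups stand apart for *H19* (991 to 1095 against 798 to 845 FPKM) and overlap for the other 3 genes.

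*Grb10* and *Plagl1* were detected below the filter. *Grb10*, an adaptor that binds the insulin and IGF1 receptors and restrains their signals, is listed on the minus strand of chromosome 11 from 11883094 to 11976732. It had 58, 22, 15, 23 and 25 counts in si-Control replicates 1 to 5 and 19, 21, 44, 54 and 50 in si-*Fndc1* replicates 1 to 5. Replicate 1 of si-Control was the only library of its group above 25 counts, and the groups overlapped. In the fit without the filter, its log2 fold change was 0.51 with a standard error of 0.44 (edgeR adjusted p = 0.474). *Plagl1*, a zinc finger transcription factor also called Zac1, is listed on chromosome 10 from 12936248 to 13006726, and it had 4 and 19 counts in si-Control replicates 3 and 4, 8 in si-*Fndc1* replicate 5 and 0 in the other 7 libraries.

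*Dlk1*, *Meg3*, *Rian* and *Mirg* lie in this order on the plus strand of chromosome 12. *Dlk1* encodes a membrane protein related to the Notch ligands and is made from the paternal allele, and the other 3 are noncoding RNAs of the maternal allele, with *Rian* and *Mirg* hosting small nucleolar RNAs and microRNAs. *Dlk1* is listed from 109418749 to 109429262 and *Mirg* from 109696198 to 109715894, and neither had a count in any library. *Meg3*, listed from 109506884 to 109538156, had 2 counts in si-Control replicate 5 and 2 in si-*Fndc1* replicate 4. *Rian*, listed from 109570242 to 109628150, had 4 counts in si-*Fndc1* replicate 5. At this depth no difference between the groups was detectable for these genes, and their levels were within the limit that a count of 0 allows, apart from the 4 counts of *Rian* in a single library.

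The whole domain between the listed starts of *Dlk1* and *Dio3*, which encodes the deiodinase that inactivates thyroid hormone, spans 827 kb. It holds 116 listed genes, of which 108 had no count in any library. Of 59 microRNA genes there, 58 had no count and *Mir1906-1* had 3 counts in a single library. The domain had 3253 counts over the 10 libraries, and 3211 of them lay on *Gm3379*, a processed pseudogene whose reads may come from a near-identical copy elsewhere. *Gm3379* had 4.52 ± 1.17 FPKM (SD, n = 5) in si-Control and 8.42 ± 1.36 (SD, n = 5) in si-*Fndc1* and was called higher (log2 fold change 0.90, adjusted p = 0.00246). The other 42 counts of the domain were spread over 7 genes, the imprinted ones included.

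RefSeq windows around the start sites, from 250 bases before to 50 bases after, were at hand for 8 of the 9 genes and none for *H19*. They are shown for *Peg3*, the protein-coding member with the highest level, and for *Dlk1* and *Meg3*, which had no or next to no counts. CpG dinucleotides, at which DNA can be methylated, are in capitals. Methylation was not measured, and whether these windows lie in an imprinting control region was not examined. The build is GRCm38.p6, which is not that of the listed gene positions, so the 2 sets of coordinates cannot be compared. The windows are chr7:6730370-6730669 on the minus strand, chr12:109452573-109452872 on the plus strand and chr12:109540746-109541045 on the plus strand.
Peg3: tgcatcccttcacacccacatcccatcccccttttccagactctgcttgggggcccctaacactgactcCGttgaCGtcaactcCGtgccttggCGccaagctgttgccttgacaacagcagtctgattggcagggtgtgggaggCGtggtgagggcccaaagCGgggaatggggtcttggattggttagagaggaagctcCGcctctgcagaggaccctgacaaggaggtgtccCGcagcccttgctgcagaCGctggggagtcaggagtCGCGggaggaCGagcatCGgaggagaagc
Dlk1: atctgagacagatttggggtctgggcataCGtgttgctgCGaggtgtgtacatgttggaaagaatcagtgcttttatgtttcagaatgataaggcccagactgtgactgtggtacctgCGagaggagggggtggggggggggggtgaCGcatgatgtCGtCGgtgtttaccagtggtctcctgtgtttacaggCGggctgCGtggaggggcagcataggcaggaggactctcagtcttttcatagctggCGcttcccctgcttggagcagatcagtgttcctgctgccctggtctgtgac
Meg3: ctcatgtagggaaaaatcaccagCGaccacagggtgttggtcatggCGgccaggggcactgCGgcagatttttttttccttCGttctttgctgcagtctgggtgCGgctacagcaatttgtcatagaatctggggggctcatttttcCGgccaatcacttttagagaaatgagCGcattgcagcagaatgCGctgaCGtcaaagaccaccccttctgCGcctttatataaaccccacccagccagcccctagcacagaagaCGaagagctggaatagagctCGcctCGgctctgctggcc
The windows shown of *Peg3* and *Meg3* each held 13 CpG and that of *Dlk1* held 9. A second *Meg3* window, at chr12:109545148-109545447 and not shown, held 1. Over the 12 windows of the 8 genes the count ran from 0, for *Rian*, to 45, in a window of *Grb10*, against a median of 7 over all 32841 windows. A CpG was present in 94.6% of all windows and in 11 of the 12. The letters CCATNTT, a core of the YY1 motif searched on both strands, stood in 16.1% of all windows and in 1 of the 12 (*Grb10*), and the E-box letters CAGCTG, the same on both strands, stood in 16.3% of all windows and in 1 of the 12 (*Mest*). These matches are descriptions of letters and carry no result on binding.

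Of 56 other imprinted genes listed, 45 had a count, 27 were tested and 7 were called, 3 higher and 4 lower in si-*Fndc1*. This is 25.9% of those tested, against 34.4% of all tested genes. With so few genes, and a list chosen with earlier results known, the calls are given as values of single genes. Their median log2 fold change was 0.04, against 0.00 over all genes tested. *Dcn*, which encodes the collagen-binding proteoglycan decorin, had 15.5 ± 0.340 FPKM in si-Control and 20.2 ± 0.949 in si-*Fndc1* (SD, n = 5 each) and rose by 0.39 on the log2 scale. *Impact*, which encodes an inhibitor of the kinase Gcn2, had 15.4 ± 0.547 FPKM in si-Control and 18.99 ± 0.278 in si-*Fndc1* (SD, n = 5 each) and rose by 0.31. With a correction for the GC content and length of the genes, *Dcn* was at 0.25 (edgeR adjusted p = 0.000396) and *Impact* at 0.11 (adjusted p = 0.0328). Neither gene overlapped between the groups in FPKM, with uncorrected edgeR adjusted p = 2.93e-05 and 5.02e-05.

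*Peg10*, a paternally expressed gene derived from a retrotransposon, fell by 0.27 on the log2 scale (edgeR adjusted p = 0.0143). *Trappc9*, which encodes a subunit of a vesicle tethering complex, fell by 0.26 (adjusted p = 0.0022), and *Igf2r*, the receptor that clears Igf2, fell by 0.17 (adjusted p = 0.0186). With the same correction, *Trappc9* was at −0.05 (adjusted p = 0.42) and *Igf2r* at −0.02 (adjusted p = 0.674), and both calls ended. *Blcap* fell by 0.14 (adjusted p = 0.0422), and its call was lost in 13 of 21 alternative fits, among them 9 of the 10 that left out a single library, all but that without si-*Fndc1* replicate 4. *Cd81*, a tetraspanin of the cell surface next to the *H19* cluster, was the most abundant of the list with 101 ± 5.44 and 102 ± 6.83 FPKM (SD, n = 5 each), and its log2 fold change of 0.01 did not pass the test (adjusted p = 0.857).

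**Figure D4:**
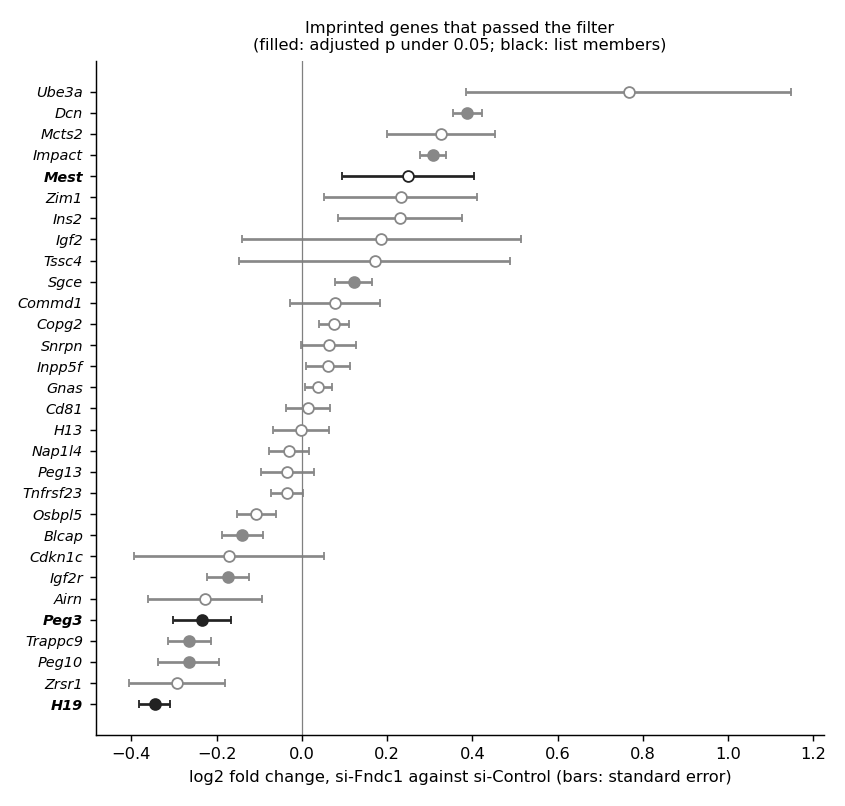
Log2 fold change of the 30 imprinted genes that passed the filter, si-*Fndc1* against si-Control, with its standard error. The 3 genes of the list are in black and the other 27 in grey, and filled points have an edgeR adjusted p under 0.05. *H19* has the lowest value, −0.35, and the called genes lie on both sides of 0.

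Of 23 listed genes that set, keep or remove DNA methylation and other imprint marks, 18 were tested. Of these, 5 were called (27.8%, against 34.4% of all tested genes), 4 lower and 1 higher, with a median log2 fold change of −0.07. *Tet3*, which oxidizes methylated cytosine, had 5.89 ± 0.351 FPKM in si-Control and 3.91 ± 0.321 in si-*Fndc1* (SD, n = 5 each), and fell by 0.58 on the log2 scale (edgeR adjusted p = 6.73e-05). *Dnmt3a*, a de novo DNA methyltransferase, fell by 0.50 (adjusted p = 0.000451). *Ehmt2*, a histone H3 lysine methyltransferase, fell by 0.32 (adjusted p = 0.000912) and *Dnmt1*, the maintenance methyltransferase, by 0.15 (adjusted p = 0.0111). With the correction for GC content and length, *Ehmt2* was at −0.02 (adjusted p = 0.836) and *Dnmt1* at 0.01 (adjusted p = 0.938), and both calls ended, while *Tet3* was at −0.29 (adjusted p = 0.000376) and *Dnmt3a* at −0.24 (adjusted p = 0.0394). *Hells*, a chromatin remodeler needed for DNA methylation, rose by 0.34 (adjusted p = 0.0283), and its call was lost in 10 of 20 alternative fits, among them the corrected one (0.15, adjusted p = 0.336) and those without si-Control replicate 1, 3 or 4 or without si-*Fndc1* replicate 2 or 4.

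The 26 listed partners of the 9 genes are receptors, binding proteins and microRNA targets named for them. Of these, 17 were tested and 13 called (76.5%), 10 lower and 3 higher, with a median log2 fold change of −0.20. Over all tested genes the share called was 34.4%, with 17.2% lower and 17.3% higher. The list was written with earlier results of these libraries known, and its share is no independent evidence of a direction. *Notch3* and *Notch1*, receptors of the pathway that Dlk1 is known to modulate, fell by 0.56 (edgeR adjusted p = 5.57e-06) and 0.46 (adjusted p = 0.00516). *Dlk1* itself had no count in any library. *Igf1r*, a receptor of Igf2, fell by 0.45 (adjusted p = 0.000197). *Khsrp*, an RNA-binding protein that *H19* is known to bind, had 31.5 ± 1.71 FPKM in si-Control and 22.4 ± 0.819 in si-*Fndc1* (SD, n = 5 each), and fell by 0.48 (adjusted p = 2.53e-05).

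*Hmga2*, a chromatin protein and let-7 target, went the other way and had 2.37 ± 0.188 FPKM in si-Control and 3.35 ± 0.233 in si-*Fndc1* (SD, n = 5 each), and rose by 0.51 on the log2 scale (edgeR adjusted p = 0.000328). *Insr*, the insulin receptor, was at −0.77 (adjusted p = 0.0494) with overlapping groups, and its call was lost in 13 of 21 alternative fits, among them 7 that left out a single library (si-Control replicate 1, 3 or 5, or si-*Fndc1* replicate 1, 2, 3 or 5). With the correction for GC content and length, *Notch1* was at −0.16 (adjusted p = 0.204) and its call ended. The calls of 4 others were kept with smaller changes, *Notch3* at −0.23 (adjusted p = 0.000185), *Khsrp* at −0.29 (adjusted p = 0.000448), *Igf1r* at −0.13 (adjusted p = 0.0261) and *Hmga2* at 0.35 (adjusted p = 0.00542).

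Within 500 kb of a member, 289 genes were listed, 40 were tested and 13 were called, 8 higher and 5 lower. The share called, 32.5% of those tested, was near the 34.4% of all tested genes, so the calls below are given as values of single genes. The median log2 fold change of the 40 genes was 0.08. Around *H19*, 6 of 17 tested genes were called, 3 in each direction, and 1 of the 3 lower is *Gm49394*, whose counts cannot be told apart from those of *Igf2* and whose call ended without si-Control replicate 1 (adjusted p = 0.0902). Its nearest called neighbour was *Mrpl23*, a mitochondrial ribosomal protein gene 34.8 kb away, which rose by 0.42 on the log2 scale (edgeR adjusted p = 0.00235). *Tnni2*, the fast skeletal troponin I 131 kb away, rose by 0.60 (adjusted p = 0.000677) and is named here after its value was seen. The called genes of this chromosome segment thus lay on both sides of 0.

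Around *Mest*, 3 of 7 tested genes were called, 2 higher and 1 lower, with *Tmem209* at 0.29 (edgeR adjusted p = 0.000933). The lower gene, *Ube2h*, was at −0.19 (adjusted p = 0.000865) and is named here after its value was seen. *Gm13835*, also there, is a processed pseudogene whose reads may come from a near-identical copy elsewhere. It was at 0.41 (adjusted p = 0.00161) and at −0.02 with the correction for GC content and length (adjusted p = 0.817). Around *Peg3*, 1 of 5 was called, the zinc finger gene *Zfp954* at 0.31 (adjusted p = 0.00196). Around *Plagl1*, 2 of 7 were called. They were the splicing factor gene *Sf3b5* at 0.23 (adjusted p = 0.0227), whose call was lost without si-Control replicate 4 (0.20, adjusted p = 0.0546) or 5 (0.22, adjusted p = 0.0503) or si-*Fndc1* replicate 4 (0.19, adjusted p = 0.05), and *Utrn*, which encodes the dystrophin relative utrophin, at −0.34 (adjusted p = 0.000498). With the correction for GC content and length, *Sf3b5* was at 0.45 (adjusted p = 0.00102) and *Utrn* at −0.15 (adjusted p = 0.00347). Around *Grb10*, the 2 tested genes, *Fignl1* at 0.09 (adjusted p = 0.639) and *Cobl* at 0.11 (adjusted p = 0.212), did not pass the test.

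**Figure D5:**
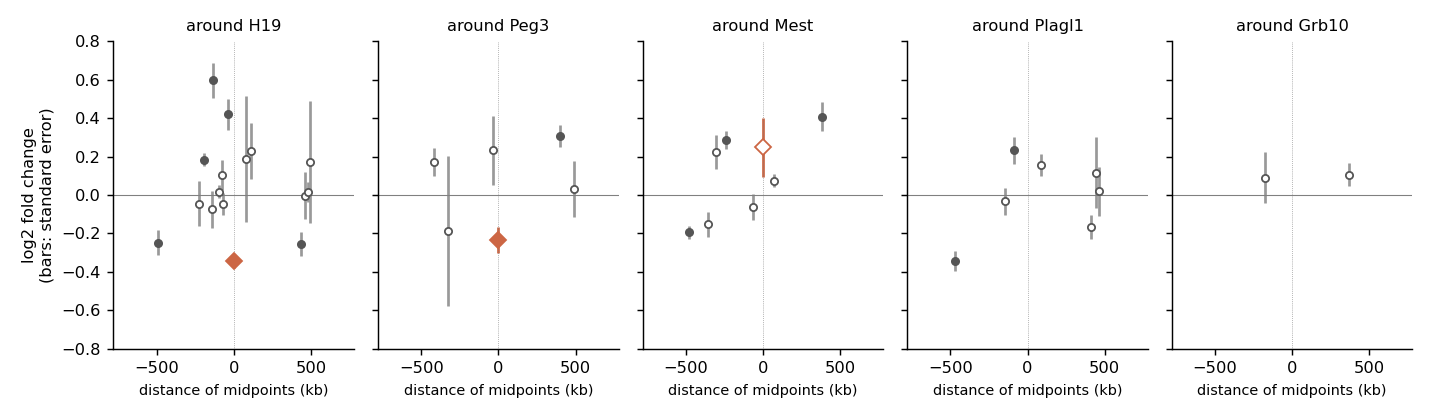
Log2 fold change (with standard error) of tested genes within 500 kb of *H19*, *Peg3*, *Mest*, *Plagl1* and *Grb10*, against the distance between the midpoints of the listed gene bodies in kb. Circles are neighbours, diamonds are *H19*, *Peg3* and *Mest* themselves, filled symbols have an edgeR adjusted p under 0.05, and *Gm49394* and *Gm49369*, whose counts come mostly from 1 or 2 si-Control libraries, are left out. Called neighbours of *H19* lie on both sides of 0, while *H19* itself is at −0.35.

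To describe which genes varied most like each member between libraries, the group means were taken from log2 CPM and Pearson's r was computed over the 10 libraries for 13494 genes, which share library and depth. For *H19* the highest values were 0.95 for *Pip4p1*, 0.93 for *Pqlc3* and 0.92 for *Gm28901*. For *Peg3* they were 0.99 for *Pip4k2b*, 0.97 for *Asb16* and 0.97 for *Rbm28*. For *Mest* they were 0.95 for *Nap1l4*, an imprinted gene of chromosome 7, 0.93 for *Atp6v1g2* and 0.92 for *1700012B09Rik*. All of these were picked as the highest among 13494 genes over only 10 libraries, and none was tested. Between the members, r was −0.41 for *H19* and *Peg3*, 0.46 for *H19* and *Mest* and −0.38 for *Mest* and *Peg3*. Over 10 libraries such values cannot tell a weak likeness from none.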

How the data were processed

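C2C12 libraries made from polyadenylated RNA were grouped by their labels, 5 si-Control and 5 si-*Fndc1*. The paper's methods name 4 libraries without saying which, and all 10 were used. The authors deposited raw read counts per gene, and beside each count an FPKM value, a count divided by transcript length and library size, set to 0.0001 for genes without a read (taken as 0 here). Sources disagree on the pipeline: TopHat with mm10 and htseq-count in the paper, STAR with mm9 in the series description, and cutadapt 1.9, FastQC and GRCm39 in the submitters' processing notes. The table names no build, and its coordinates are printed as listed. They differ from the GRCm38 (mm10) positions printed with the sequences, as *Mir675* shows. Whether counting used strand is not stated.

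Counts were tested with edgeR 4.0.16 (R 4.3.3; quasi-likelihood test, TMM scaling, Benjamini-Hochberg) for the 13548 genes with a mean of at least 0.5 FPKM, without covariates, after a test on simulated data. Alternatives were RLE and upper quartile scaling, DESeq2 1.42.0, limma 3.58.1 on log2(FPKM + 1) and log2(FPKM + 0.1), no filter, a mean FPKM of at least 1, leaving out each library, the replicate number as a block, and an offset for GC content and length (Huber regression, splines of 5 degrees of freedom, exons of NCBIM37 matched by identifier for 12258 genes, 90.5%). Figures and tables were made in Python 3.11.15.

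The 9 members and all lists were chosen with earlier results of these data known. Named beside the members were *Fndc1*, up to 6 called genes with the largest change and any with a mean of at least 100 FPKM from the lists of other imprinted genes, imprint maintenance and partners, up to 2 nearest called neighbours of each member, microRNA genes as counts, and the 3 genes most alike to each tested member. RefSeq windows and microRNAs were matched by symbol.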

Additional observations from a re-analysis of the deposited data

Results flagged for a closer look

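Among 62 groups of 5 libraries, formed by 31 genes, 8 held a library that stood apart from the other 4 by Dixon's criterion, where chance alone gives about 1 in 20. Of the members, *Grb10* had 0.0749 FPKM in si-Control replicate 1 and 0.0201 to 0.0360 in the others. In the same library *Igf2* had 3.96 FPKM (others 17.7 to 18.95), *Gm49394*, which overlaps it, had 21.3 (others up to 1.98), and *Blcap* had 10.7 (others 10.3 to 10.4). In si-Control replicate 2, *Impact* had 14.5 FPKM (others 15.5 to 15.8) and the pseudogene *Gm3379* had 6.54 (others 3.47 to 4.32). In si-*Fndc1* replicate 4, *Insr* had 3.87 FPKM (others 1.71 to 1.99). In si-*Fndc1* replicate 5, *Zfp954* had 5.10 FPKM (others 4.50 to 4.67). No library of *H19*, *Peg3* or *Mest* stood apart in this way.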

How the results depend on the processing

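The call of *H19* and the missing call of *Mest* were the same in all their alternatives (21 and 20), with log2 fold changes of −0.37 to −0.29 and 0.09 to 0.34. The call of *Peg3* was lost with the replicate block (−0.23, edgeR adjusted p = 0.06), with the block and the correction for GC content and length (−0.18, adjusted p = 0.0597) and without any of 3 single libraries (−0.28 to −0.20 over all 10 such fits), so that 1 member was called lower under these settings. Leaving out single libraries gave 1 to 2 members called lower.

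With the correction for GC content and length, fitted on the 12258 genes with a GC content, 1296 were called higher and 1315 lower. With the replicate block added, these counts were 875 and 803. The 2338 and 2325 calls of the main fit were made over the larger set of 13548 genes. The log2 fold change fell with GC content (Spearman's rho −0.49 across 12258 genes, which are not independent). With block and correction together, *Impact* (0.12, adjusted p = 0.0811), *Igf1r* (−0.13, adjusted p = 0.0872) and *Zfp954* (0.23, adjusted p = 0.0651) also lost their calls. Other imprinted genes called lower numbered 2 with the block and 2 with block and correction. Neighbours called higher numbered 5 with block and correction, and those called lower numbered 3 with the correction and 3 with both.

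The sign turned for *Igf2* without si-Control replicate 1 (−0.060, with 0.27 as the highest of the 10 such fits) and with the counts of *Gm49394* added (−0.13, chosen after seeing the data), for *Cd81* without si-Control replicate 3 (−0.010) or si-*Fndc1* replicate 4 (−0.025, with 0.038 as the highest), for *Dnmt1* with the correction (0.0057) and with block and correction (0.0058), and for *Gm13835* likewise (−0.021 and −0.023). For these changes the cause was not tested. For the 27 single genes named beside the members, 495 of 561 values kept their direction and side of the threshold, 58 lost the call and 8 turned. The labels do not say whether libraries with the same replicate number belong together. Such libraries had correlations of deviations of −0.06 to 0.06, and 1 of 5 numbers correlated best with its own.

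The ratios of *Rian*, *Mirg* and *Dlk1* to *Meg3* had been planned and were not run, since these genes had 0 counts in most libraries. At this depth, a count of 0 allows levels of up to 0.0395 to 0.0533 CPM, depending on the library.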

Other observations

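Below the filter of 0.5 FPKM, 3 other imprinted genes were called in the fit without the filter, and they are named here after their values were seen. That fit held 45 of the 56 other imprinted genes and called 3 higher and 5 lower, those above the filter included. The share of all genes called in that fit is not given here, so the values are those of single genes. None of the 3 genes was in the fits with the correction for GC content and length. *Kcnq1ot1*, the long noncoding RNA that silences the imprinted cluster next to that of *H19*, had 369, 384, 388, 361 and 388 counts in si-Control replicates 1 to 5. It had 214, 265, 257, 257 and 204 counts in si-*Fndc1* replicates 1 to 5. All si-*Fndc1* libraries were lower, and its log2 fold change was −0.59 with a standard error of 0.10 (edgeR adjusted p = 0.0017). Its great length kept it at 0.0511 ± 0.00373 and 0.0337 ± 0.00252 FPKM (SD, n = 5 each). *Kcnq1ot1* is listed wholly within the body of *Kcnq1*, on the other strand, which had 15 to 63 counts per library. The counting is not stated to have used strand, so that unspliced reads of *Kcnq1* may be among its counts.

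*Nnat*, which encodes a small membrane protein, ranged from 63 to 104 counts over si-Control and from 20 to 47 over si-*Fndc1* (log2 fold change −1.13, standard error 0.28, edgeR adjusted p = 0.0162). Its listed body lies wholly within that of *Blcap*, on the other strand, which had 1812 to 2752 counts per library. The counting is not stated to have used strand, so that reads of *Blcap* may be among those of *Nnat*. *Slc38a4*, an amino acid transporter gene that is highly expressed in liver and placenta, had 8, 0, 8, 0 and 4 counts in si-Control replicates 1 to 5. It had 72, 147, 140, 158 and 36 counts in si-*Fndc1* replicates 1 to 5 (log2 fold change 4.79, standard error 0.71, edgeR adjusted p = 0.000834). The groups did not overlap for *Nnat* or *Slc38a4*. Such a separation in FPKM, in either direction, was shown by 25.1% of the 13548 genes above the filter. The 18 tested liver transcripts were higher in the same libraries, and their part in the value of *Slc38a4* was not tested.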
